A study of Rattus norvegicus with 176 samples.

Results

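The genes described here are 7 of the interstitial matrix: the fibrillar collagen chains Col1a1, Col1a2 and Col3a1, the metalloproteinase inhibitor Timp1, the collagen-binding matricellular protein Sparc, and the small leucine-rich proteoglycans Bgn (biglycan) and Dcn (decorin). They were taken by name from the array annotation, which placed all 7 on the array, on 10 of 15922 probe sets and among 10411 named genes. Col1a1, Col1a2 and Sparc had 2 probe sets each, and for these the probe set with the higher mean log2 signal was used.

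The study profiled liver sections of F344 rats on Affymetrix arrays. Clofibric acid (CA) is a fibrate, a drug class that activates the nuclear receptor PPARalpha and enlarges the peroxisome compartment of rodent liver. Diethylnitrosamine (DEN) is a liver carcinogen used as an initiator. The labels gave 4 arms, control, CA, DEN and DEN-CA, and the sample titles named 5000 ppm of CA, also for control rats. The sections with no tissue tag fell into 30 groups of 3 to 6 rats, 1 section a rat. Each of the 4 arms had rats at 5j, 1m, 3m, 9m and 12m. Control and DEN rats were also taken at -8, and control and CA rats at 18m. The word rev marked further groups of control and CA rats at 18m, control and DEN-CA rats at 12m and DEN rats at 12, and 6 CA rats carried the time 18 with no unit. Another 23 sections of 16 CA or DEN-CA rats were tagged TU, and 5 sections were tagged PERI. What j, rev, TU and PERI stand for is not given in the sources used here, nor are the ages and sexes of the rats.

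Type I and type III collagen are the main fibrils of the liver's interstitial matrix, and in liver they are made chiefly by hepatic stellate cells and portal fibroblasts rather than by hepatocytes. Type I collagen is a trimer of 2 chains from Col1a1 and 1 from Col1a2. Timp1 blocks the metalloproteinases that degrade these fibrils, and Sparc, Bgn and Dcn bind collagen and shape how fibrils assemble. The group is best known in liver as the transcripts that rise when a scar forms.

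In GRCr8, the assembly of the RefSeq gene table used for names, Col1a1 lies on chr10:80380458-80397461, Col1a2 on chr4:33518557-33553484, Col3a1 on chr9:54866646-54902578, Timp1 on chrX:3766509-3772578, Sparc on chr10:40017065-40038816, Bgn on chrX:156348633-156360797 and Dcn on chr7:34167973-34208004. RefSeq promoter entries (250 bases before the annotated start) matched 3 of the 7 genes, Col1a2, Timp1 and Sparc. Col1a2 and Timp1, which held searched motifs, are shown with the matches in capitals. The Col1a2 stretch covers bases 250 to 151 before the start, chr4:33518307-33518406 on the plus strand. The Timp1 stretch covers bases 172 to 73 before the start, chrX:3771195-3771294 on the minus strand, and lies inside the annotated span of the gene.
Col1a2: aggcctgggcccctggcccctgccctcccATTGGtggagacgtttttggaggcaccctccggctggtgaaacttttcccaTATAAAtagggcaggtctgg
Timp1: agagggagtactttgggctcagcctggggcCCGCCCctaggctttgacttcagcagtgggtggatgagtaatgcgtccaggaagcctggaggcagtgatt
The motifs searched on both strands were the CCAAT box, the TATA box letters TATAAA, the GC box letters GGGCGG and the AP-1 site TGANTCA, and none contains another. Col1a2 held CCAAT on the minus strand (read as ATTGG above) 221 bases before the start and TATAAA 170 bases before it. Timp1 held GGGCGG on the minus strand (read as CCGCCC) 142 bases before the start, and Sparc held none of the 4. Among all 33469 promoters in the table, 34.0% held CCAAT, 12.9% TATAAA, 30.5% GGGCGG and 6.34% TGANTCA, so a match is common and only describes the letters.

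Values are MAS5 signals, a linear brightness per probe set, each array scaled to the same median of 99.35. Before scaling the array medians ran from 25.35 to 187.25, and 8 arrays were below 50, 3 of them CA 3m. Signals of different probe sets are not set against each other. Differences are on the log2(scaled signal + 25) scale and are given with their standard error (SE). The added 25 is called the offset. Ratios said to include the offset compare scaled signal + 25, so they show a smaller change than ratios of the signals would. An adjusted p is limma's moderated test with Benjamini-Hochberg adjustment over all probe sets tested, and a gene is called below 0.05. The labels gave a rat number for each section, so replicates are separate animals. The tissue label held in the untagged sections: 9 hepatocyte markers, Alb among them, all lay at or above the 99.41 percentile of their arrays in median. The stellate markers Des, Lrat and Ngfr were dim, at median percentiles of 34.7, 38.8 and 6.17, while Reln lay at 84.4. These are whole sections, so fewer cells of a type and less RNA per cell cannot be told apart.

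Col3a1, Sparc, Bgn and Dcn were above the 40th percentile of their array in all untagged sections, Col1a1 in 139, Timp1 in 133 and Col1a2 in 123. Across the 30 untagged groups the ratio of the highest to the lowest group mean was 3.52 for Col3a1, from 1233 ± 147 (SD, n = 5) in DEN rats at -8 to 351 ± 59.1 (n = 5) in CA rats at 18m. It was 2.93 for Col1a2, highest in control rats at -8 and lowest in the CA 18 group, and 2.52 for Timp1, highest in control 18m rev and lowest in CA 18m. The ratio was 2.35 for Dcn, 2.32 for Bgn, 2.12 for Col1a1 and 1.80 for Sparc. Neighbours in the order of group means lay closer than the larger of their SDs in 28 of 29 neighbouring pairs for Col3a1 and Col1a2, and in 29 of 29 for the other 5 genes, so the order is a gradient and not a set of separate levels.

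**Figure D1:**
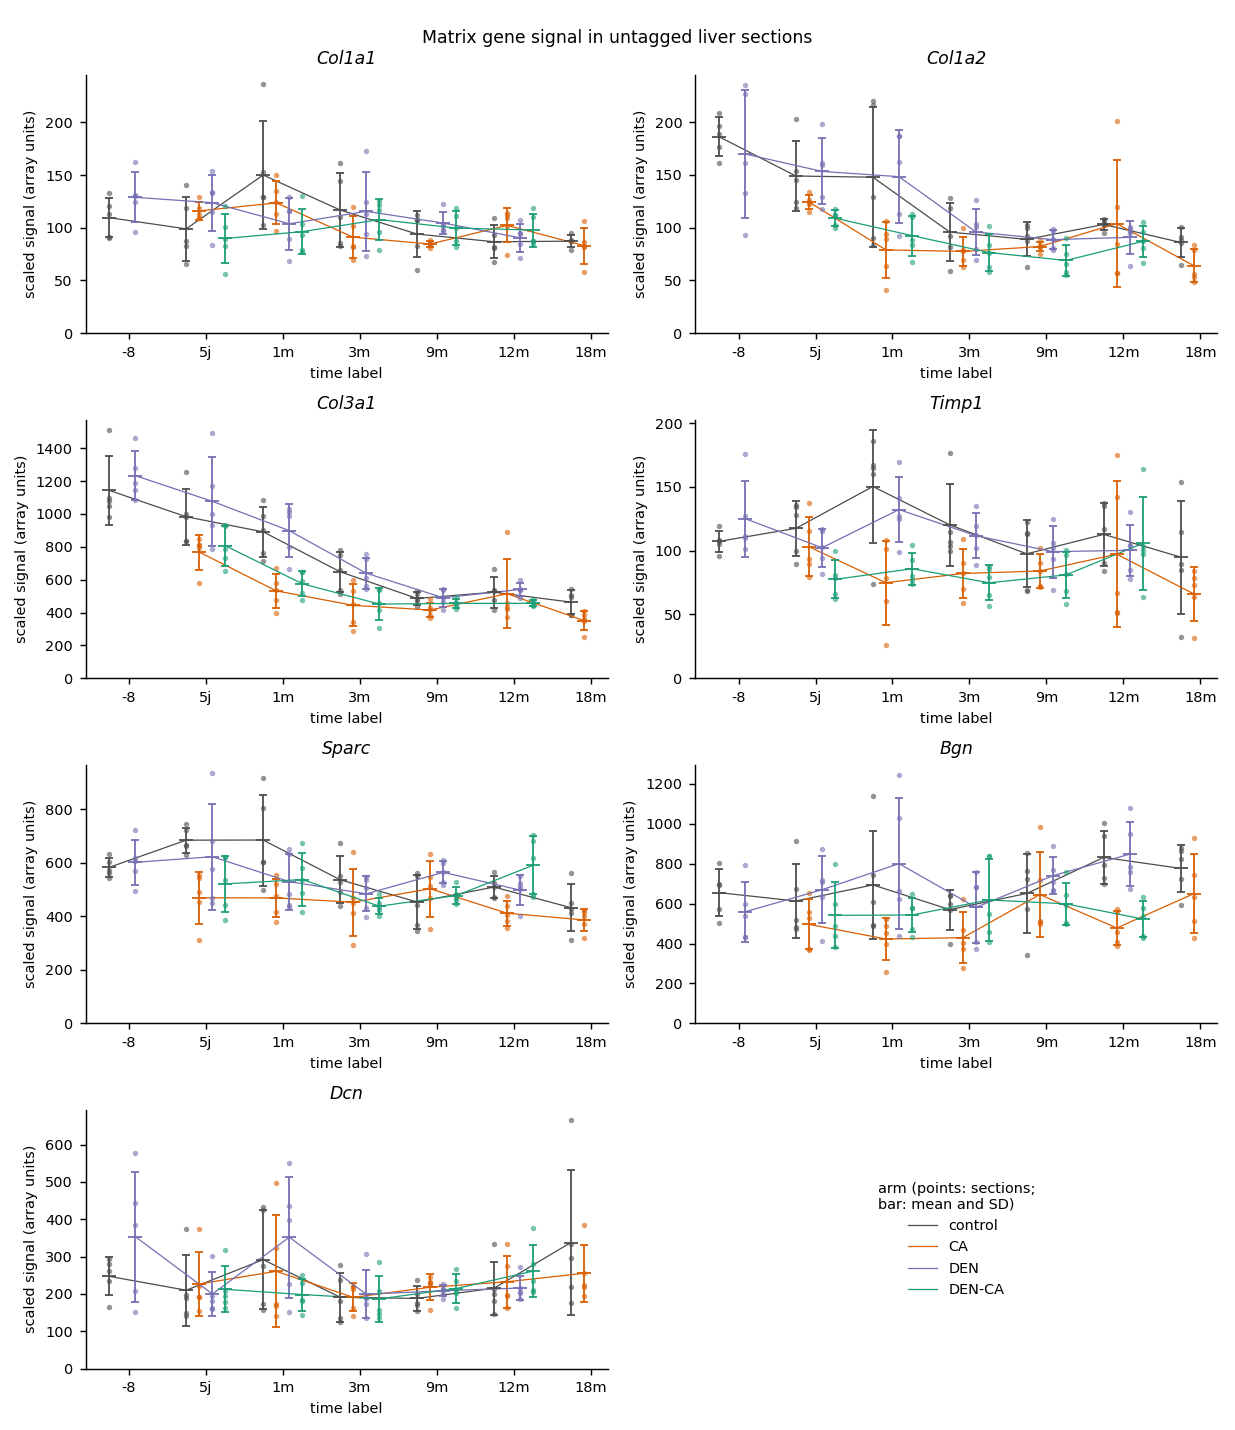
Scaled signal of each matrix gene (y axis, array units, from 0) against the time label (x axis) in untagged sections of the control, CA, DEN and DEN-CA arms; points are sections and bars the mean and SD. Col3a1 and Col1a2 stand highest at the earliest labels, and the CA arm of each of these genes has a lower mean than control at 1m.

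The comparison of CA with control rats asks how the drug alone moved the matrix genes. At 1m, 5 of the 7 fell. With the offset included, the ratio to control was 0.558 for Timp1, 0.606 for Col3a1, 0.621 for Col1a2, 0.638 for Bgn and 0.705 for Sparc. Col1a1 and Dcn were not called, at differences of -0.20 ± 0.17 and -0.18 ± 0.28. All 7 were below 0, with a median of -0.65 against -0.02 for all probe sets. At 1m 14.4% of all probe sets were called and 8.62% were called lower.

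Col3a1, the type III collagen chain, read 717, 764, 902, 989 and 1085 in control rats at 1m and 399, 474, 538, 579 and 670 in CA rats. The highest CA rat lay under the lowest control rat. The difference was -0.72 ± 0.18 (adjusted p = 0.0022), and it was called whichever of the 10 rats was left out.

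Timp1 read 73.6, 160, 165, 167 and 186 in control rats and 26.4, 60.3, 78.4, 101 and 108 in CA rats at 1m. A single low control rat, 4011, fell within the range of the CA rats, and the other 4 stood above it. The difference was -0.84 ± 0.20 (adjusted p = 0.0015) and was also called whichever rat was left out.

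Col1a2, the second chain of type I collagen, read 83.1, 90.6, 129, 216 and 220 in control rats and 41.1, 63.8, 88.9, 94.4 and 106 in CA rats. The groups overlapped, and control rats 4012 and 4013 weighed on the difference of -0.69 ± 0.20 (adjusted p = 0.0096). Without 4012 its adjusted p was 0.0763, without 4013 0.0740, and without CA rat 4126 0.0763.

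Sparc read 500, 601, 604, 806 and 915 in control rats and 379, 415, 475, 522 and 553 in CA rats at 1m (-0.50 ± 0.15, adjusted p = 0.015). Bgn read 489, 491, 607, 744 and 1139 in control rats and 255, 396, 451, 488 and 524 in CA rats (-0.65 ± 0.21, adjusted p = 0.027). Both pairs of groups overlapped. The Sparc call was lost without control rat 4012 (adjusted p = 0.0629), control rat 4013 (0.1) or CA rat 4125 (0.0582). The Bgn call was lost without control rat 4012 (adjusted p = 0.0678), control rat 4013 (0.191), CA rat 4122 (0.0515) or CA rat 4126 (0.151).

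The ratio of 3' to 5' signal of the GAPDH control probe sets, a sign of RNA quality on these arrays, also differed at 1m. On the log2 scale its range was 0.549 to 0.904 in control rats and 0.222 to 0.465 in CA rats. With this ratio as a covariate, Col3a1, Timp1 and Col1a2 kept their calls, while Sparc was -0.43 (adjusted p = 0.058) and Bgn -0.57 (adjusted p = 0.0778). Sample names ending in B, which the labels do not explain, held 2 of 5 control and 1 of 5 CA rats at 1m. Among rats without the B the differences were -0.80 for Timp1, -0.62 for Col3a1, -0.40 for Bgn, -0.36 for Col1a2 and -0.20 for Sparc, and with it -0.65, -0.85, -0.88, -1.03 and -1.13. With only the 2 groups in the fit, Col3a1 kept its call (adjusted p = 0.0104), while Timp1 (0.054), Sparc (0.0768), Bgn (0.0937) and Col1a2 (0.104) did not. With unscaled signals none of the 5 was called at 1m, at adjusted p from 0.28 to 0.825.

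The other times gave single calls. At 5j, where 11.2% of probe sets were called, Sparc alone was lower. It read 629, 662, 667, 721 and 744 in control rats and 310, 453, 489, 542 and 553 in CA rats, with no overlap (-0.55 ± 0.15, adjusted p = 0.0097). Without CA rat 4120, the lowest, the difference was -0.41 (adjusted p = 0.0804). The call was also lost with only the 2 groups in the fit (0.0568), with unscaled signals (0.0669) and by the other Sparc probe set, whose ranges overlapped (-0.30 ± 0.20, adjusted p = 0.366). The median GAPDH ratio was 0.717 in control and 0.299 in CA rats at 5j, and with it as a covariate Sparc kept its call.

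At 3m, with 14% of probe sets called, Col3a1 alone was lower. It read 513, 535, 660, 750 and 783 in control rats and 290, 345, 453, 534 and 597 in CA rats. The ranges overlapped (-0.55 ± 0.18, adjusted p = 0.028), and the call was lost in 5 of 10 leave-one-out fits. Without all arrays of a median below 50, 3 of them CA 3m, the difference was -0.17 (adjusted p = 0.731). The CA 3m rats left in that fit, 4128 (597) and 4131 (534), were the highest of their group for Col3a1. That fit cannot tell dim arrays from the choice of rats.

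At 12m, with 11.7% called, Bgn alone was lower. It read 697, 728, 791, 938 and 1005 in control rats and 389, 409, 460, 556 and 574 in CA rats. No CA rat reached the lowest control rat (-0.77 ± 0.21, adjusted p = 0.008), and the call stood in all 10 leave-one-out fits.

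No matrix gene was called at 9m (6.83% of probe sets called, 0 members below an unadjusted p of 0.05 in limma) or at 18m (6.8% called, 1 member below it, Col3a1). All 7 differences were below 0 at 18m, with a median of -0.28. The CA 18 group against control 18m gave no member call either, where 23.3% of probe sets were called. Its largest difference was in Col1a2 (-0.44 ± 0.19, adjusted p = 0.0845).

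Averaged over the 6 times, the same 5 genes as at 1m were lower with CA. The mean differences were -0.40 ± 0.09 for Bgn (adjusted p = 7.4e-05), -0.38 ± 0.07 for Col3a1 (7.6e-06), -0.37 ± 0.08 for Timp1 (0.00013), -0.27 ± 0.08 for Col1a2 (0.0046) and -0.27 ± 0.06 for Sparc (0.00024). Col1a1 was at -0.04 ± 0.07 and Dcn at 0.00 ± 0.11. The background was broad, with 40.1% of probe sets called, 22.6% lower and 17.6% higher. The median of the 7 was -0.27 and that of all probe sets -0.02. The 5 calls held in all 60 leave-one-out fits. A direct contrast of the CA difference at 18m with that at 5j called none of the 7 (0.728% of probe sets called, 0 members below an unadjusted p of 0.05), so a change of the CA difference between these times was not detected.

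**Figure D2:**
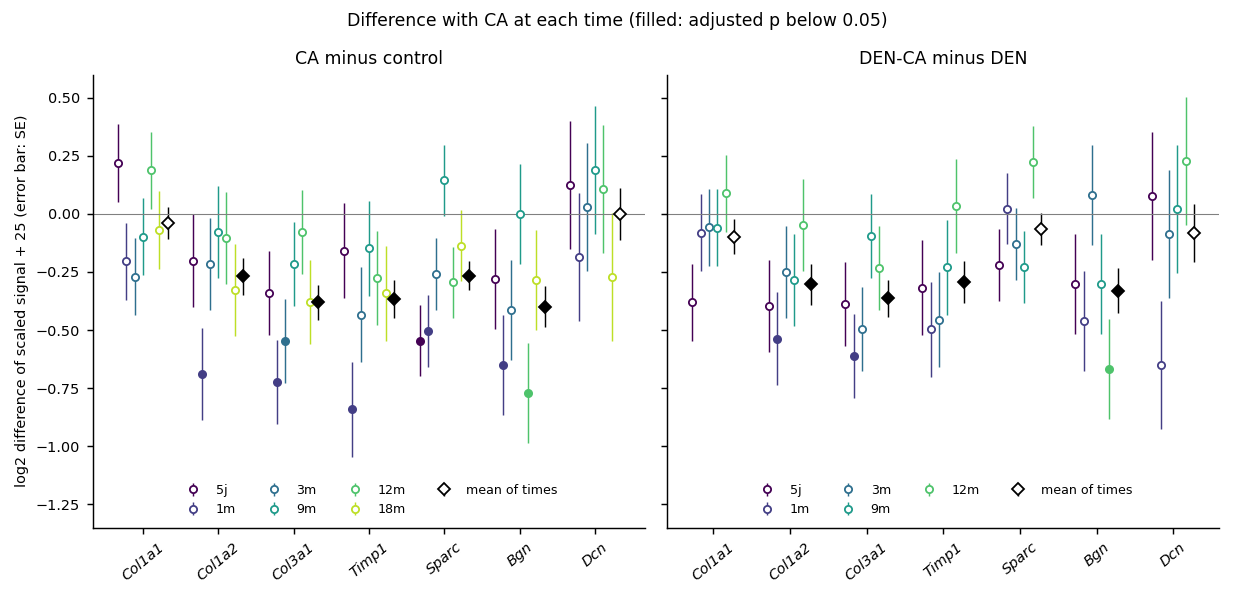
Log2 difference with its SE (y axis) for each matrix gene (x axis) at each time and for the mean of times (diamonds), for CA minus control and for DEN-CA minus DEN; filled symbols have an adjusted p below 0.05. The 1m symbols of Timp1, Col3a1 and Col1a2 are the lowest of their genes in the CA panel, and Col1a1 and Dcn scatter around 0.

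DEN-CA against DEN asks the same of rats that had also received the initiator. Over the mean of 5 times, Col3a1 (-0.36 ± 0.08, adjusted p = 0.00012), Bgn (-0.33 ± 0.10, 0.0036), Col1a2 (-0.30 ± 0.09, 0.004) and Timp1 (-0.29 ± 0.09, 0.0069) were lower. Sparc was at -0.07 ± 0.07, Col1a1 at -0.10 ± 0.07 and Dcn at -0.08 ± 0.12. Here 35.1% of all probe sets were called and 16.3% were called lower. The 4 calls stood in all 50 leave-one-out fits, and with unscaled signals all 4 were lost (adjusted p from 0.33 to 0.474).

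By time, Col3a1 and Col1a2 were lower at 1m, where 16.2% of probe sets were called. Col3a1 read 666, 798, 987, 1013 and 1028 in DEN rats and 474, 520, 593, 645 and 645 in DEN-CA rats. The groups did not overlap (-0.61 ± 0.18, adjusted p = 0.01) and no left-out rat ended the call. Col1a2 was close to the threshold (-0.54 ± 0.20, adjusted p = 0.0498) and lost its call in 6 of 10 leave-one-out fits.

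At 12m Bgn was lower, where 7.06% of probe sets were called. It read 674, 759, 781, 948 and 1077 in DEN rats and 426, 438, 537, 578 and 634 in DEN-CA rats. The groups did not overlap (-0.67 ± 0.21, adjusted p = 0.036), and 6 of 10 leave-one-out fits lost the call, with adjusted p up to 0.125, as did the fit without dim arrays (0.0988). No member was called at 5j (10.5% of probe sets called, 3 members below an unadjusted p of 0.05 in limma), 3m (14.3%, 2 members) or 9m (7.01%, 0 members).

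The difference between the CA effect with and without DEN was itself tested over 5 times. None of the 7 was called, against 0.0404% of probe sets, and 1 was below an unadjusted p of 0.05. That was Sparc, at 0.23 ± 0.10 (adjusted p = 0.41).

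DEN alone against control gave no matrix call at any of 6 times or in the mean of 5. The share of probe sets called was 0.307% at -8, 0.0404% at 5j, 0.00809% at 3m, 0.0162% in the mean, and 0% at 1m, 9m and 12m. At those last 3 times limma put 548, 458 and 331 of 12368 probe sets below an unadjusted p of 0.05. For members the unadjusted count was 2 at 1m, 1 at 9m and 0 elsewhere. The largest difference was that of Col1a1 at 1m, -0.42 ± 0.17.

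Other matrix genes were read from lists by role, chosen with earlier results of these data known. With CA over the 6 times, 22.6% of all probe sets were called lower and 17.6% higher. Of 6 tested collagens of fibrils or bound to fibrils outside the 7, 4 were lower with CA over the 6 times and none higher, with a list median of -0.29 against -0.01 for all genes. They included Col14a1 (-0.42 ± 0.06), Col2a1 (-0.32 ± 0.08) and Col5a2 (-0.25 ± 0.06), which builds fibrils together with type I collagen. Col2a1 and Col5a2 lay below the array median of 99.35 at 18m. Col2a1 was at 76.6 ± 19.3 (SD, n = 5) in control and 77.9 ± 17.4 in CA rats there, and Col5a2 at 67.9 ± 9.29 and 53.3 ± 9.80. Of 9 basement membrane and beaded collagens 4 were lower and 1 higher, the lower ones including Col6a3 (-0.51 ± 0.06) and the higher one being Col4a5 (0.56 ± 0.06). The list median was -0.20.

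Against 22.6% of all probe sets called lower and 17.6% higher, 11 of 21 other matrix proteins were lower and 1 higher (median -0.21). The lower ones included the laminin chains Lama2 (-0.62 ± 0.11) and Lamb2 (-0.50 ± 0.09). Both were dim in CA rats at 1m. Lama2 was at 53.25 ± 34.5 (SD, n = 5) there against 103 ± 24.2 in control, and Lamb2 at 24.9 ± 23.3 against 48.0 ± 20.6. Of 14 genes that fold, trim or cross-link collagen 7 were lower and none higher (median -0.13). Pcolce, which enhances removal of the procollagen C-propeptide, was at -0.46 ± 0.09 and the prolyl hydroxylase subunit P4ha2 at -0.37 ± 0.06. Of 11 metalloproteinases and inhibitors 5 were lower and none higher (median -0.17), and both sides of that balance were among them: the proteases Mmp14 (-0.88 ± 0.07) and Mmp2 (-0.34 ± 0.05), and the inhibitor Timp3 (-0.64 ± 0.07). Of 17 genes of TGF-beta signalling, the pathway that induces collagen transcription, 7 were lower and 1 higher (median -0.17). The receptor Tgfbr1 was at -0.55 ± 0.07 and the TGF-beta-induced matrix gene Tgfbi at -0.28 ± 0.06.

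Markers of several cell types moved with these genes, in a contrast with 22.6% of all probe sets called lower and 17.6% higher. Of 8 tested stellate markers 4 were lower with CA and none higher (median -0.22), among them Reln (-0.51 ± 0.06), Vim (-0.42 ± 0.08) and the PDGF receptor Pdgfrb (-0.37 ± 0.07). The summed signal of 9 stellate markers ran from 948 to 1825 (median 1301) in 30 control sections and from 698 to 1205 (median 985) in 30 CA sections. In median, 5 of these 9 lay below the 40th percentile of their array, and none had a value of 0. Of 7 Kupffer cell and macrophage markers 6 were lower and none higher (median -0.42), and their sum ran from 3540 to 10100 (median 5190) in control and from 2419 to 5618 (median 3810) in CA sections. Of 7 endothelial markers 4 were lower. Of 3 cholangiocyte markers 1 was higher, Epcam (1.00 ± 0.06), and none lower. Of 6 markers of portal fibroblasts and other mesenchyme 1 was lower, Pdgfra (-0.72 ± 0.11), and 1 higher. Of 5 markers of smooth muscle and myofibroblasts 1 was lower, Mylk (-0.76 ± 0.07), and none higher. Acta2, the actin of activated stellate cells, was not called (-0.11 ± 0.06). The sum of 6 such markers ran from 1146 to 2216 (median 1576) in control and from 680 to 1523 (median 990) in CA sections. Mylk was the brightest of them, at a median signal of 1110 over the untagged sections. The part of these cell types in the matrix gene differences was not tested.

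At 1m alone, where 8.62% of all probe sets were called lower against 22.6% over the 6 times, 2 of 6 fibril collagens and 6 of 21 other matrix proteins were lower and none higher. Of 8 stellate markers 4 (median -0.46) and of 7 Kupffer cell markers 6 (median -0.69) were lower at 1m, the counts also found over the 6 times. In DEN-CA against DEN over 5 times 16.3% of all probe sets were called lower. Lower were 3 of 6 fibril collagens, 11 of 21 other matrix proteins and 5 of 11 metalloproteinases and inhibitors. Of the markers, 5 of 8 stellate and 7 of 7 Kupffer cell markers were lower. There 7 of 9 hepatocyte markers were lower as well, against 2 of 9 in CA against control.

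The times asked how the genes stood at later against earlier time labels. Col3a1 was lower at the last time in all 4 arms. In control rats it read 838, 838, 979, 1001 and 1258 at 5j and 385, 386, 497, 506 and 542 at 18m, so that every 18m rat lay under every 5j rat. The ratio with the offset included was 0.485 (-1.04 ± 0.18, adjusted p = 2e-05). In CA rats it read 582, 790, 809, 812 and 848 at 5j and 253, 350, 361, 383 and 408 at 18m, again with no overlap (-1.08 ± 0.18, adjusted p = 8.8e-06). From 5j to 12m it was lower by -0.93 ± 0.18 in DEN rats (adjusted p = 0.00045) and by -0.78 ± 0.18 in DEN-CA rats (0.0029).

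Control means of Col3a1 were 1144 ± 210 (SD, n = 5) at -8, 983 ± 172 at 5j, 891 ± 153 at 1m, 648 ± 122 at 3m, 486 ± 39.0 at 9m, 524 ± 93.2 at 12m and 463 ± 72.6 at 18m. Means in CA rats were 768 ± 106 at 5j, 532 ± 103 at 1m, 444 ± 127 at 3m, 415 ± 45.1 at 9m, 515 ± 211 at 12m and 351 ± 59.1 at 18m. In control rats the means descend from -8 to 9m, while in CA rats the 12m mean, which includes rat 4137 at 888, stood above that at 9m.

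From 5j to 18m, 3 of 7 genes were lower in control rats, where 7.02% of probe sets were called: Col3a1, Sparc (-0.65 ± 0.15, adjusted p = 0.0027) and Col1a2 (-0.64 ± 0.20, adjusted p = 0.033). In CA rats 2 of 7 were lower, Col3a1 and Col1a2 (-0.76 ± 0.20, adjusted p = 0.0066), against 8.12% of probe sets. In the shorter span of the DEN arms Col3a1 was the 1 member called, against 1.2% of probe sets in DEN and 4.69% in DEN-CA rats. Bgn and Dcn were at 0.36 ± 0.21 and 0.57 ± 0.28 in control rats and were not called, although Bgn was called higher once the B suffix was a covariate.

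The B suffix moved with time, on 4 of 5 control arrays at 5j and none at 18m. The median GAPDH 3' to 5' ratio moved as well, from 0.717 to 0.326 in control rats. With the suffix as a covariate Col3a1 was at -0.93 (adjusted p = 0.00027) and Sparc at -0.52 (0.0157) in control rats, while Col1a2 was at -0.44 (0.128). In that fit Bgn was higher at 18m in control rats (0.71, adjusted p = 0.0087) and in CA rats (0.53, 0.0478). With the GAPDH ratio as a covariate they were at -1.03, -0.58 and -0.58, and again only Col1a2 lost its call (adjusted p = 0.07). The Col1a2 call was also lost in 5 of 10 leave-one-out fits. With unscaled signals the median of all probe sets rose by 0.33 in control and 0.66 in CA rats, and Col3a1 was at -0.64 (adjusted p = 0.261) and -0.31 (0.398), so its time differences are relative to the array median. Among the lists by role, the contrast in control rats called 1 of 6 fibril collagens lower. Apart from 1 metalloproteinase or inhibitor in each direction, none of the other matrix and TGF-beta lists had a call there. In CA rats 0 of 6 fibril collagens were called. Other matrix proteins, collagen processing genes and metalloproteinases and inhibitors each had 1 call in each direction in CA rats. Basement membrane and beaded collagens and TGF-beta genes each had 1 higher and none lower. Of 9 hepatocyte markers 1 was lower in control rats (median -0.43) and 5 in CA rats (median -0.53), with none higher. Of 2 red cell markers 1 was higher in control and 2 in CA rats (median 1.46), and of 7 endothelial markers 2 were higher in CA rats. No stellate marker was called in either arm, and the part of these cells in the time differences was not tested.

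The rev groups were set against rats of the same arm and time without that word. In CA rats at 18m all 7 genes were above 0 in the rev group, with a median of 0.51 against 0.01 for all probe sets. Timp1 and Sparc were called, where 14.7% of probe sets were called and 6.29% were called higher. Timp1 read 31.2, 63.4, 73.2, 79.0 and 83.8 in CA 18m rats and 99.7, 118, 123 and 160 in CA 18m rev rats. Every rev rat lay above every CA 18m rat (0.74 ± 0.22, adjusted p = 0.01), but the call was lost without rat 4142 (adjusted p = 0.0659) or rat 4146 (0.0522) and with unscaled signals (0.40, 0.426). The 6 CA 18 rats, which carry no rev, read 74.7 to 175.9 for Timp1 with a median of 103 and overlapped the rev rats.

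Sparc read 320, 373, 402, 416 and 422 in CA 18m rats and 452, 461, 687 and 698 in CA 18m rev rats. The groups did not overlap (0.52 ± 0.16, adjusted p = 0.019), while the CA 18 rats, at 397 to 566 with a median of 527, overlapped the rev rats. The call was lost without rat 4146, 4148 or 4150, with adjusted p up to 0.110, with unscaled signals (0.831) and by the other Sparc probe set (0.50 ± 0.21, adjusted p = 0.0854). Col3a1 did not overlap either and was not called (0.51 ± 0.19, adjusted p = 0.056). The control rev group was not tested against control 18m. Timp1 was 167 ± 50.9 (SD, n = 3) there and ran from 32.7 to 154 with a median of 89.3 in control 18m, Sparc 697 ± 79.5 and 432 ± 88.9, and Col3a1 770 ± 260 and 463 ± 72.6.

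The direct contrast of the CA rev with the control rev group called none of the 7, against 0.736% of probe sets, with 1 member below an unadjusted p of 0.05. All 7 differences were below 0, and the largest was that of Col3a1 (-0.53 ± 0.22). Whether rev changed the CA difference at 18m was tested and gave no member call (1.46% of probe sets called, 0 members below an unadjusted p of 0.05). Kupffer cell markers moved with the genes in CA rev rats, 5 of 7 higher (median 0.79), with sums of 6992 to 9878 against 4535 to 5466 in CA 18m. Lymphocyte marker sums were 474 to 762 against 295 to 468, with 0 of 7 called. Among controls they reached 2059 in rat 4040 (18m) and 5396 in rat 4043 (18m rev). The part of these cells was not tested.

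In DEN-CA rats at 12m, Col3a1 and Bgn were higher in the rev group, where 12.9% of probe sets were called. Col3a1 read 439, 445, 446, 467 and 483 in DEN-CA rats and 523, 603, 669, 790 and 1013 in rev rats. The groups did not overlap (0.59 ± 0.18, adjusted p = 0.018), and the call was lost without rat 4111 (0.47, adjusted p = 0.0975) or 4112 (0.0506). Bgn read 426, 438, 537, 578 and 634 in DEN-CA rats and 620, 779, 846, 890 and 1041 in rev rats. The groups overlapped at 1 rat on each side (0.65 ± 0.21, adjusted p = 0.031), and 5 of 10 leave-one-out fits and the fit without dim arrays (0.59, 0.0869) lost the call. Dcn was at 0.72 ± 0.28 (adjusted p = 0.069). Here too 6 of 7 Kupffer cell markers were higher (median 0.65). The stellate marker list is not reported here for the rev contrasts, so these counts do not single out Kupffer cells. The part of any cell type in the rev differences was not tested.

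DEN-CA rev against DEN rev called none of the 7 (0.121% of probe sets called, 1 member below an unadjusted p of 0.05), and its largest difference was in Dcn (0.80 ± 0.26, adjusted p = 0.60). Whether rev changed the DEN-CA difference at 12m gave no member call either (2.31% called, 2 members below an unadjusted p of 0.05). Bgn came nearest, at 0.78 ± 0.30 (adjusted p = 0.17).

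TU sections were compared with the untagged section of the same rat, after averaging the TU sections of a rat. Over the mean of the CA arm (9 rats) and the DEN-CA arm (7 rats), type I and III collagen transcripts and Timp1 were higher in TU and Bgn was lower. The ratios given here include the offset. Col1a2 stood at 1.72 times the untagged section (0.78 ± 0.15, adjusted p = 0.00069) and Timp1 at 1.33 times (0.41 ± 0.13, 0.016). Col3a1 stood at 1.24 times (0.31 ± 0.11, 0.033) and Col1a1 at 1.23 times (0.30 ± 0.09, 0.012). Bgn was at 0.730 times (-0.45 ± 0.14, 0.013), a call lost with quantile normalization (-0.37, 0.0516) and with unscaled signals (-0.31, 0.237). Sparc and Dcn were not called, at 0.15 ± 0.08 and -0.29 ± 0.18. In this contrast 33.1% of probe sets were called, 12.8% higher and 20.3% lower.

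Col1a2 was higher in TU in 7 of 7 DEN-CA rats, with a lowest, median and highest difference of 0.22, 0.89 and 1.81. It was higher in 8 of 9 CA rats, with -1.06, 0.60 and 1.83. The highest value of the CA arm came from rat 4156, whose untagged section read 13.1, the lowest of the TU rats. Timp1 was higher in 6 of 7 and 8 of 9 rats, Col3a1 in 5 of 7 and 8 of 9, and Col1a1 in 6 of 7 and 6 of 9. Sparc was higher in 5 of 7 and 5 of 9. Bgn was higher in 1 of 7 and 3 of 9 and Dcn in 1 of 7 and 4 of 9, so the proteoglycans went the other way from the collagens in most rats of the DEN-CA arm.

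By arm, 3 genes were called in DEN-CA rats, where 29.6% of probe sets were called: Col1a2 (0.95 ± 0.23, adjusted p = 0.0042), Col1a1 (0.50 ± 0.13, 0.0077) and Bgn (-0.67 ± 0.20, 0.017). Bgn differences in these rats ran from -1.24 over a median of -0.76 to 0.05, and the call was lost without rat 4103 or 4104. In CA rats none was called, against 3.74% of probe sets, with 3 members below an unadjusted p of 0.05: Col1a2 (0.61 ± 0.20, adjusted p = 0.0888), Timp1 (0.43 ± 0.17) and Col3a1 (0.32 ± 0.14). The difference between arms called none of the 7 and 0% of probe sets, with 1 member and 1812 of 11542 probe sets below an unadjusted p of 0.05 in limma.

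Single rats stood apart. CA rat 4137 at 12m went the other way, at -1.06 for Col1a2, -0.85 for Col3a1 and -0.67 for Timp1. Its untagged section was high, with 888 for Col3a1, 201 for Col1a2 and 175 for Timp1. Without this rat the calls within arms went from 3 to 6. In the rev rat 4151 the TU section read 1584 for Dcn and 1459 for Bgn, against 324 and 746 in its untagged section.

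The rev rat 4111 had 2 TU sections, with 204 and 669 for Col1a2, 164 and 392 for Col1a1 and 892 and 1867 for Col3a1. Both read above its untagged section of 89.1 for Col1a2, while for Col3a1 the untagged section read 1013. The section with the higher collagen signals also had a summed signal of 8 pancreatic acinar genes of 21570, against at most 341 in any other TU section. Its part in the TU result was not tested, but the values without both rev rats were computed. There Col1a2 was at 0.71 (adjusted p = 0.0033), Timp1 at 0.43 (0.0266), Col1a1 at 0.24 (0.0408) and Bgn at -0.59 (0.0016). Col3a1 lost its call (0.29, 0.0757), as it did in 8 of 16 leave-one-out fits. Dcn was then called lower, at -0.51 (adjusted p = 0.0049).

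**Figure D3:**
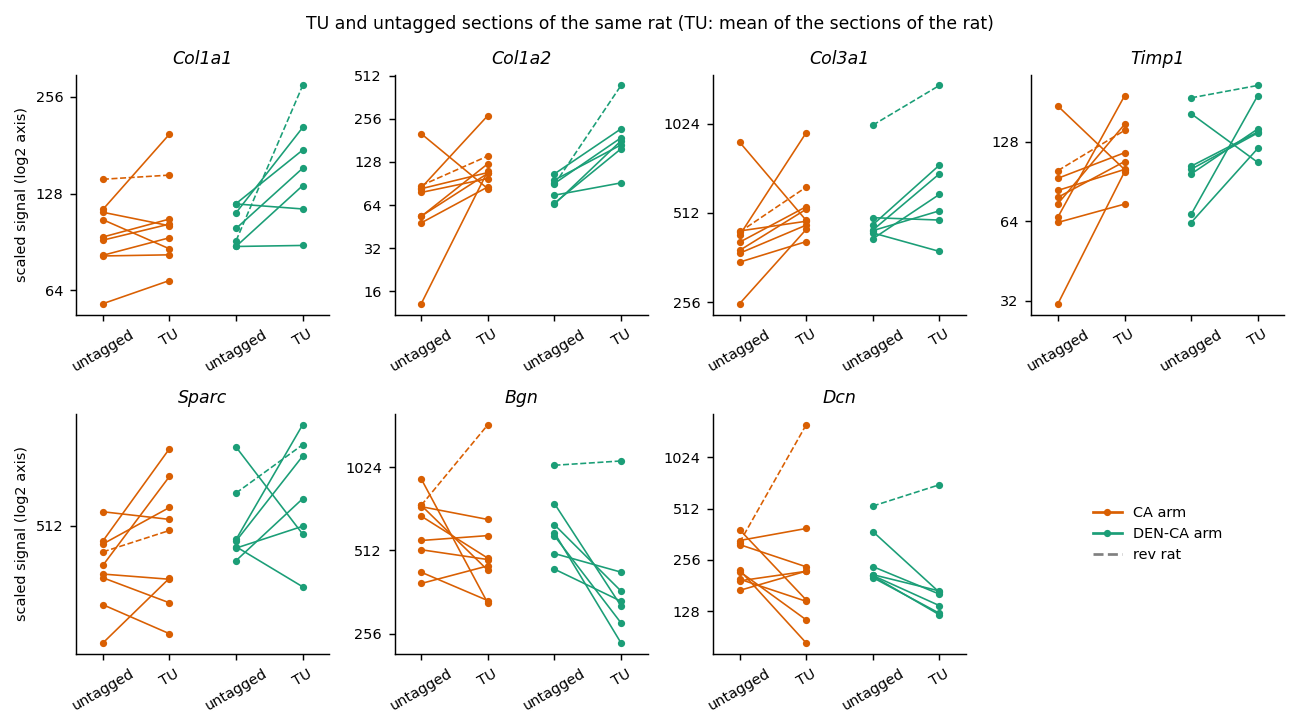
Scaled signal (log2 axis, array units) of each matrix gene in the untagged section and the mean of the TU sections of the same rat, 9 CA and 7 DEN-CA rats, with lines joining a rat and dashed lines for the rev rats. Col1a2 is higher in TU in 15 of 16 rats and Bgn is lower in 12 of 16, and the dashed CA rat has the highest TU value of Dcn.

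The lists by role were mixed in TU, where 12.8% of all probe sets were called higher and 20.3% lower. Of 6 fibril collagens none was called, with Col12a1 at 0.26 ± 0.11 and Col5a2 at 0.15 ± 0.09. Of 9 basement membrane and beaded collagens 4 were higher and 1 lower, among them Col4a1 (0.44 ± 0.10) and Col18a1 (-0.40 ± 0.08). Of 10 metalloproteinases and inhibitors 2 were higher and 1 lower: Mmp12, the macrophage elastase, at 2.98 ± 0.42, Timp3 at 0.52 ± 0.10 and Mmp14 at -0.35 ± 0.09. Among 14 collagen processing genes 2 were higher and 3 lower, with Bmp1, which trims procollagens, at -0.80 ± 0.12. Of 20 other matrix proteins 1 was higher and 3 lower, and the lower ones, Vtn (-1.11 ± 0.17), Ecm1 (-0.93 ± 0.14) and Fn1 (-0.38 ± 0.09), include plasma matrix proteins that hepatocytes secrete. Of 17 TGF-beta genes 1 was higher and 1 lower, with Tgfbi at -0.56 ± 0.10.

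Markers of some other cells also differed in TU, against 12.8% of all probe sets called higher and 20.3% lower. Acta2, a marker of smooth muscle and activated stellate cells, was at 0.51 ± 0.09, Vim at 0.51 ± 0.14 and Thy1, a portal fibroblast marker, at 0.37 ± 0.13. Of 4 tested markers of smooth muscle and myofibroblasts 1 was higher, Acta2, and 1 lower, Mylk (-0.28 ± 0.10). Of 6 markers of portal fibroblasts and other mesenchyme 1 was called, Thy1, and the list median was 0.018. The quiescent stellate markers Reln and Lrat were at -0.43 ± 0.09 and -0.45 ± 0.14, so that of 8 stellate markers 1 was higher and 2 lower. The sum of 9 stellate markers ran from 872 to 1514 (median 1059) in the 16 untagged sections and from 757 to 1951 (median 1015) in the 23 TU sections. Of 7 Kupffer cell markers 6 were lower (median -0.77), with sums of 2823 to 9751 (median 4590) in untagged and 1550 to 5196 (median 2552) in TU sections. Of 7 endothelial markers 4 were lower, among them Kdr (-1.11 ± 0.18) and Lyve1 (-0.83 ± 0.12), with sums of 1709 to 3535 (median 2728) and 944 to 3391 (median 1653). Of 9 hepatocyte markers 2 were lower and none higher, near the share of all probe sets called lower. Of 2 cholangiocyte markers 1 was higher, Epcam (0.44 ± 0.10), and none lower. The part of these cells in the matrix gene differences was not tested.

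PERI sections came from 5 rats that also had TU and untagged sections. Against the untagged section none of the 7 genes was called. Neither was any other probe set (0% of 10150, 0 members and 279 probe sets below an unadjusted p of 0.05 in limma). Col3a1 in PERI read 349, 458, 491, 496 and 597 and differed from untagged by -0.05 ± 0.13, and Bgn differed by 0.24 ± 0.17. TU against PERI called none of the 7 and 0.0191% of probe sets, with 3 members below an unadjusted p of 0.05. These were Bgn (-0.73 ± 0.20, adjusted p = 0.0948), Timp1 (0.37 ± 0.15) and Dcn (-0.44 ± 0.18).

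Col1a1 stood apart from the other genes, and its 2 probe sets disagreed. Over the untagged sections, as deviations from the group means, the brighter and dimmer Col1a1 probe sets had Pearson's r = 0.01 (Spearman's rho = 0.03, permutation p = 0.90). The dimmer one, at a median percentile of 26.1 and above the 40th percentile on 34 arrays, went with Col1a2 (r = 0.46, rho = 0.42, permutation p = 1e-05, the smallest that 100000 permutations can give, adjusted p = 4.5e-05 over 9 pairs). Without the 2 farthest sections r was 0.43. The brighter Col1a1 probe set had r = -0.16 with Col1a2 and -0.17 with Col3a1. Over the 23 TU sections, where signals were higher, the 2 Col1a1 probe sets had r = 0.87, given as a description since sections share rats.

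By its dimmer probe set Col1a1 was lower from 5j to 18m in control rats (-1.48 ± 0.28, adjusted p = 0.00014) and in CA rats (-0.94 ± 0.28, 0.0228). It was lower in DEN-CA than in DEN rats over 5 times (-0.31 ± 0.13, 0.0457) and at -0.25 ± 0.12 (0.0743) in CA against control. In TU it was higher by 1.15 ± 0.23 (0.00087). The counts of members use the brighter probe set of Col1a1 throughout. The other probe sets of Col1a2 (-0.21 ± 0.06, adjusted p = 0.0047) and Sparc (-0.27 ± 0.08, 0.0031) were also lower with CA over 6 times, but at 1m neither was called (-0.36 ± 0.16, 0.112, and -0.50 ± 0.20, 0.0707). The other Sparc probe set was not called in control rats from 5j to 18m either (-0.52 ± 0.20, 0.0863), nor the other Col1a2 probe set (-0.39 ± 0.16, 0.111).

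**Figure D4:**
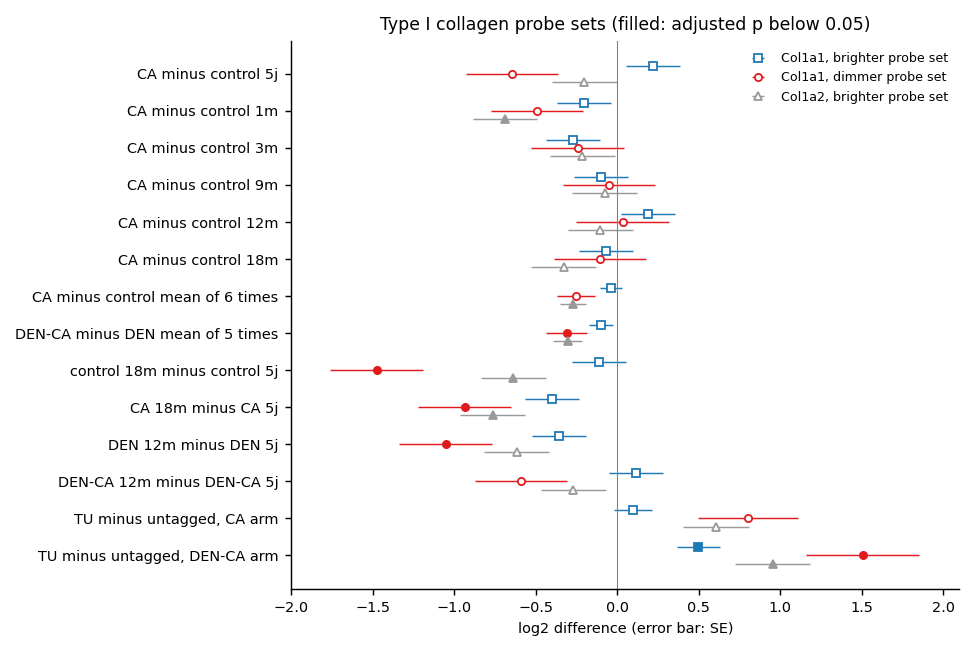
Log2 difference with its SE (x axis) in 14 comparisons (y axis) for the brighter and dimmer Col1a1 probe sets and the brighter Col1a2 probe set; filled symbols have an adjusted p below 0.05. The dimmer Col1a1 probe set and Col1a2 lie on the same side of 0 except for CA minus control at 12m, and the brighter Col1a1 probe set stays nearer to 0 with time and in TU.

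Among themselves the other 6 genes varied together from rat to rat within groups. Of 21 pairs, the 15 without Col1a1 had r from 0.21 to 0.60, highest for Col1a2 with Col3a1 (r = 0.60, rho = 0.56, adjusted permutation p = 4.2e-05, r = 0.58 without the 2 farthest sections). Within sections with the B suffix that pair had r = 0.45 and without it 0.63. Pairs of Bgn with Col3a1 (r = 0.54) and of Dcn with Col1a2 (r = 0.55) followed. Pairs of Col1a1 had r from -0.23 to -0.08. By r 16 of 21 pairs passed an adjusted p of 0.05, and by rho 17. These counts include negative pairs: Col1a1 with Dcn (r = -0.23, adjusted permutation p = 0.025) and, by rho, also Col1a1 with Col3a1 (-0.23, 0.021). In sections with the B suffix Timp1 had r = 0.07 with Col3a1 and 0.02 with Bgn, against 0.47 and 0.23 without it.

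The genes most like the mean log2 signal of Col1a1, Col1a2 and Col3a1 over all untagged sections, among 8726 genes, were Col5a2 (r = 0.69), Pbsn (0.66), Slc6a6 (0.64) and the MHC class II genes Cd74 (0.63) and RT1-Bb (0.63). These r include the differences between groups; as deviations from group means they were 0.40, 0.33, 0.12, 0.33 and 0.40. Cd74, the invariant chain of MHC class II, was lower with CA at 1m (-1.18 ± 0.27) and over 6 times (-0.76 ± 0.11). Of the members, Col3a1 itself had r = 0.93 with that mean, Col1a2 0.89 and Col1a1 0.45, and of those outside it Sparc had 0.52, Timp1 0.47, Dcn 0.21 and Bgn 0.14.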

How the data were processed

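Sections were profiled on Affymetrix arrays, and the deposited intensity values are MAS5 signals per the submitters' processing notes, with no version and no scaling target given. Each array was scaled to a median of 99.35, and log2(scaled signal + 25) was used. A probe set entered a fit where 3 or more of its arrays held it above their 40th percentile (12368 of 15922 for untagged sections, 11542 for TU, 10150 and 10492 for PERI). Of all probe sets 12783 had 1 gene name, 312 several and 2827 none in the array annotation. limma 3.58.1 (R 4.3.3; lmFit, eBayes with trend) fitted 30 group means to the untagged sections (118 residual degrees of freedom), which share 1 spread. TU and PERI sections were paired with the untagged section of the same rat, the rat number coming from the deposited labels (16 and 5 rats; 14 and 4 residual degrees of freedom). Benjamini-Hochberg adjustment ran over all probe sets of a contrast. The CA contrasts share control rats with the time contrasts, and TU shares untagged sections with PERI. The fits were tested on simulated data. No array pair was identical, and arrays of a group correlated at 0.929 or more.

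The 7 members and the gene lists were chosen with earlier results of these data known. Beyond the members, the rule named up to 3 genes per role or marker list with the smallest p in the mean CA contrast and in the TU mean of arms, and the 5 genes most like the mean of the 3 collagens. Alb, Des, Lrat, Ngfr and Reln were also named to check the tissue label. Alternatives were other offsets (6, 99), no scaling, quantile normalization, other filters, array weights, the B suffix or the GAPDH ratio as covariates, only the groups of a contrast, another probe set, no pairing, and each rat left out. The GAPDH covariate and leaving out arrays with a median below 50 were chosen after seeing the data. Correlations used 100000 permutations within groups (scipy 1.17.1, Python 3.11.15).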

Additional observations from a re-analysis of the deposited data

Results flagged for a closer look

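Of 217 groups of 4 to 10 values tested for a value far from the rest, 15 had one, and chance flags about 1 in 20 groups. For Col3a1 these were CA 12m rat 4137 (888, others 373 to 460), CA 18 rat 4153 (743, others 331 to 445), CA 5j rat 4118 (582, others 790 to 848), DEN 12 rev rat 4083 (1394, others 412 to 585) and control rat 4001 at -8 (1511, others 981 to 1098). The DEN 12 rev rat 4083 was also high for Sparc (679, others 370 to 440). For Col1a1, DEN 9m rat 4072 read 122 (others 97.1 to 104), and the TU minus untagged difference of CA rat 4141 was 0.67 on the log2 scale (others -0.24 to 0.17). For Col1a2, DEN 12m rat 4075 read 63.4 (others 94.4 to 101).

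Timp1 was low in control 1m rat 4011 (73.6, others 160 to 186) and high in control 3m rat 4019 (177, others 99.7 to 115). Dcn read 157 in CA 9m rat 4133 (others 224 to 246), 302 in DEN 5j rat 4057 (others 160 to 194) and 375 in control 5j rat 4007 (others 140 to 197). The TU minus untagged difference of Dcn in the CA rev rat 4151 was 2.21 (others -1.26 to 0.33). Of 35 tests of a difference between 2 effects on a member, none was called.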

How the results depend on the processing

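None of the 41 member differences called in the main analysis changed direction under the alternatives run; differences not called were not followed, and for Col1a1 the dimmer probe set turned the sign in CA against control at 5j (0.22 to -0.65). Counts of member calls by family of contrasts moved as follows. CA against control had 8 calls, 2 with only the groups of a contrast in the fit, and 5 to 8 with a rat left out (5 without control 1m rat 4012 or 4013). DEN-CA against DEN had 3, 0 without scaling, 5 with array weights, 6 with the B suffix as a covariate, and 1 to 6 with a rat left out (6 without DEN 1m rat 4062; 1 without rat 4074, 4076, 4108 or 4110, and 2 without most others, since Col1a2 at 1m lay at the threshold). The rev families had 4, 7 with array weights and 2 to 5 with a rat left out (2 without rat 4146, 4111 or 4112). Time had 7; without scaling all 7 were lost and 2 others were called, Bgn (1.11) and Dcn (0.88), both higher at 18m than at 5j in CA rats. It had 6 to 7 with a rat left out. TU within arms had 3, 1 with the filter at the 70th percentile (fewer probe sets tested), 8 with array weights and 2 to 6 with a rat left out. PERI had 0, and 2 without rat 4137. DEN against control had 0 throughout. The cause of each change was not tested, except where fewer samples or probe sets were fitted.

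For the paired design, TU had 2 calls with no replicate block and 2 with the rat as a random block. There Bgn in DEN-CA rats lost its call (-0.67, adjusted p = 0.0643, and -0.53, 0.118), as Col3a1 did in the mean of arms (adjusted p = 0.126 and 0.0564). With no replicate block Bgn in the mean of arms had an adjusted p of 0.0533. PERI had 0 calls with no replicate block.

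Without scaling, the median of all probe sets moved by -0.71 in CA against control at 3m, -0.33 at 5j and 0.33 in control 18m against 5j, so changes are relative to each array's median. Dim arrays limit the CA 3m and 5j values and Bgn in DEN-CA rats at 12m, and Col1a2, Timp1 and both Col1a1 probe sets lie near or below the middle of their arrays.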
